A study of Mus musculus with 4 samples.

Results

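The SOX trio consists of Sox9, Sox5 and Sox6, the transcription factors that build cartilage. The members were taken by their symbols from the rows of all 4 deposited count matrices, and each symbol named 1 of 32286 genes. They were followed in 1757 cells that passed the filters, as levels, as detection and as co-detection in the same cell, by library and by groups of cells gated on other genes.

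SOX9 binds DNA through its HMG box and switches on the genes of cartilage matrix, among them the collagens II, IX and XI and aggrecan. SOX5 and SOX6 are close relatives of each other that have an HMG box but no transactivation domain of their own. They bind beside SOX9 on the same enhancers and raise its activity, so the 3 factors are usually described as a unit that starts and keeps the chondrocyte state. In growth plate cartilage SOX9 protein stays into the prehypertrophic stage and is lost as chondrocytes complete hypertrophy, whereas RUNX2 drives hypertrophy and bone formation. Outside cartilage, SOX5 and SOX6 act in other lineages, and SOX6 is known for its part in red blood cell maturation.

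The cells came from the vertebral column between thoracic vertebra T11 and lumbar vertebra L2 and had been sorted for tdTomato (tdTom), with dead cells and cells carrying CD11b, CD31 or CD45 discarded. Control mice were Prss56Cre/+;R26tdTom/tdTom;Nf1+/+ and mutant mice were Prss56Cre/Cre;R26tdTom/tdTom;Nf1fl/fl, and each was studied at 3 months and at 12–16 months of age with no treatment named. All groups thus carried Cre under the Prss56 locus, which labels boundary cap derivatives and other cells of that lineage, and the reporter. The mutant mice carried 2 Cre alleles and the control mice 1, so that Cre dose and Nf1 genotype cannot be told apart. Each condition was 1 library, the number of mice behind a library was not given in the sources used here, and differences between conditions were not tested. The younger libraries held 717 control and 484 mutant passing cells and the older ones 135 and 421, and values of the libraries are given in this order throughout. The cells held medians of 8189 to 12644 unique molecular identifiers (UMIs) a cell, and no barcode was shared between libraries. Nf1 itself lay between 125 and 150 counts per 1000000 UMIs (CPM) in the 4 libraries, and the counts do not show whether its UMIs came from the floxed part, so this does not check the labels.

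In the GRCm38 annotation Sox9 (ENSMUSG00000000567) occupies chr11:112782224-112787760 on the plus strand. Sox5 (ENSMUSG00000041540) occupies chr6:143828425-144781977 and Sox6 (ENSMUSG00000051910) chr7:115470872-116038796, both on the minus strand. Sox9 therefore spans 5.54 kb, Sox5 954 kb and Sox6 568 kb. Annotated antisense and intronic transcripts lie within Sox5 and Sox6. The most counted of them were Sox5os4 with 333 UMIs and Gm45025, inside Sox6, with 207 UMIs in all cells, against 20203 UMIs of Sox5 and 11520 of Sox6. Whether the counting used strand and included introns was not given in the sources used here, so a share of these UMIs cannot be told apart between the overlapping genes.

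Since Sox5 and Sox6 moved together below, their promoters are shown, taken from RefSeq on GRCm38.p6 as the 250 bases before a transcript start and written 5′ to 3′ on the gene's strand. The RefSeq table held 1 start of Sox5 and 6 of Sox6, and Sox9 was not among its entries. The core sequences recognised by SOX proteins, ACAAAG and AACAAT, were searched on both strands, do not overlap each other in these windows, and are set in capitals. The Sox5 window lies at chr6:143947107-143947356, within the annotated gene and nearer its 3′ end than its 5′ end at 144781977. The 5′ end of Sox5 had no window, and which starts these cells used was not measured. Sox6 start 1 lies at chr7:116038745-116038994, near the outer end of the gene. Sox6 start 5, at chr7:115824711-115824960 inside the gene, is shown because it held the most matches.
Sox5 start 1: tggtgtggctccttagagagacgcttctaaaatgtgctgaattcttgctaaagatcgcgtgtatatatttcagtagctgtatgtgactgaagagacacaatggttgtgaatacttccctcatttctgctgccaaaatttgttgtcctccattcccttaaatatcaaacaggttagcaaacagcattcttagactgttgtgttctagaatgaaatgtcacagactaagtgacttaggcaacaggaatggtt
Sox6 start 1: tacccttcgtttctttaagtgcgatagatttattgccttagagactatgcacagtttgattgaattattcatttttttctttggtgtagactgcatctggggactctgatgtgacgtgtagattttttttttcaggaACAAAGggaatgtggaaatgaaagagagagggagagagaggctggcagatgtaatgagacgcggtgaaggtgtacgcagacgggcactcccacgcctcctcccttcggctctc
Sox6 start 5: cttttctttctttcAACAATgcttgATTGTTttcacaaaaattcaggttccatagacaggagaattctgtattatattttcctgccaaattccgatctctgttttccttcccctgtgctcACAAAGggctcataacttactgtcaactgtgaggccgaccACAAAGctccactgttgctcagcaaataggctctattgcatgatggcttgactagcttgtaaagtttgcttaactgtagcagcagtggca
The Sox5 window held 0 matches, Sox6 start 1 held 1 and Sox6 start 5 held 4, and 5 of the 6 Sox6 windows held at least 1. Over 32851 windows of the same length, 24.0% held either sequence. The 6 Sox6 windows belong to 1 gene and held 34 to 60.8% G and C. The 32851 windows were not matched to them in base composition. A match describes letters only, and no binding was measured.

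The gates used none of the 3 members. Cells with at least 3 Acan UMIs, the aggrecan core protein of cartilage, were called cartilage (1329 cells). Of these, the 247 cells with at least 2 UMIs summed over Ihh, Panx3 and Prkg2, genes of prehypertrophic and hypertrophic chondrocytes, were called hypertrophic, and the other 1082 are called other cartilage cells. Cells with at most 2 Acan UMIs and at least 1 Runx2 UMI were called bone/stroma (194 cells). The other cartilage gate held UMIs of all 9 cartilage markers in each library, summed to 15226, 11764, 9152 and 10659 CPM. The 5 markers of tenocytes and annulus fibroblasts summed to 6436, 4713, 16376 and 17883 CPM in the same cells, above the cartilage markers in both 12–16-month libraries, and to 94.0 to 607 CPM in the hypertrophic cells. Nearly all of this was Dcn, decorin (6298, 4626, 16006 and 17798 CPM), while Tnmd, tenomodulin, had 0 or 1 UMI in each library. Levels of the hypertrophic markers were less even, since Col10a1, the collagen of hypertrophic cartilage, had 3002, 640, 0 and 2202 CPM in the hypertrophic cells of the 4 libraries. The summed level of 8 hypertrophic markers in the 12–16-month control library was 1902 CPM in the hypertrophic and 2072 CPM in the other cartilage cells, so there the data go against the label of the gate. In the 3-month mutant library, 24 of the 39 bone/stroma cells carried Ptprc, Cdh5 or Acta2, markers of blood, endothelial and smooth muscle cells, although the sort had been set to discard CD45-positive blood cells and CD31-positive endothelial cells. Without that library the log2 differences between bone/stroma and other cartilage cells given below were -6.22 for Sox9, -3.56 for Sox5 and -3.43 for Sox6.

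**Figure D1:**
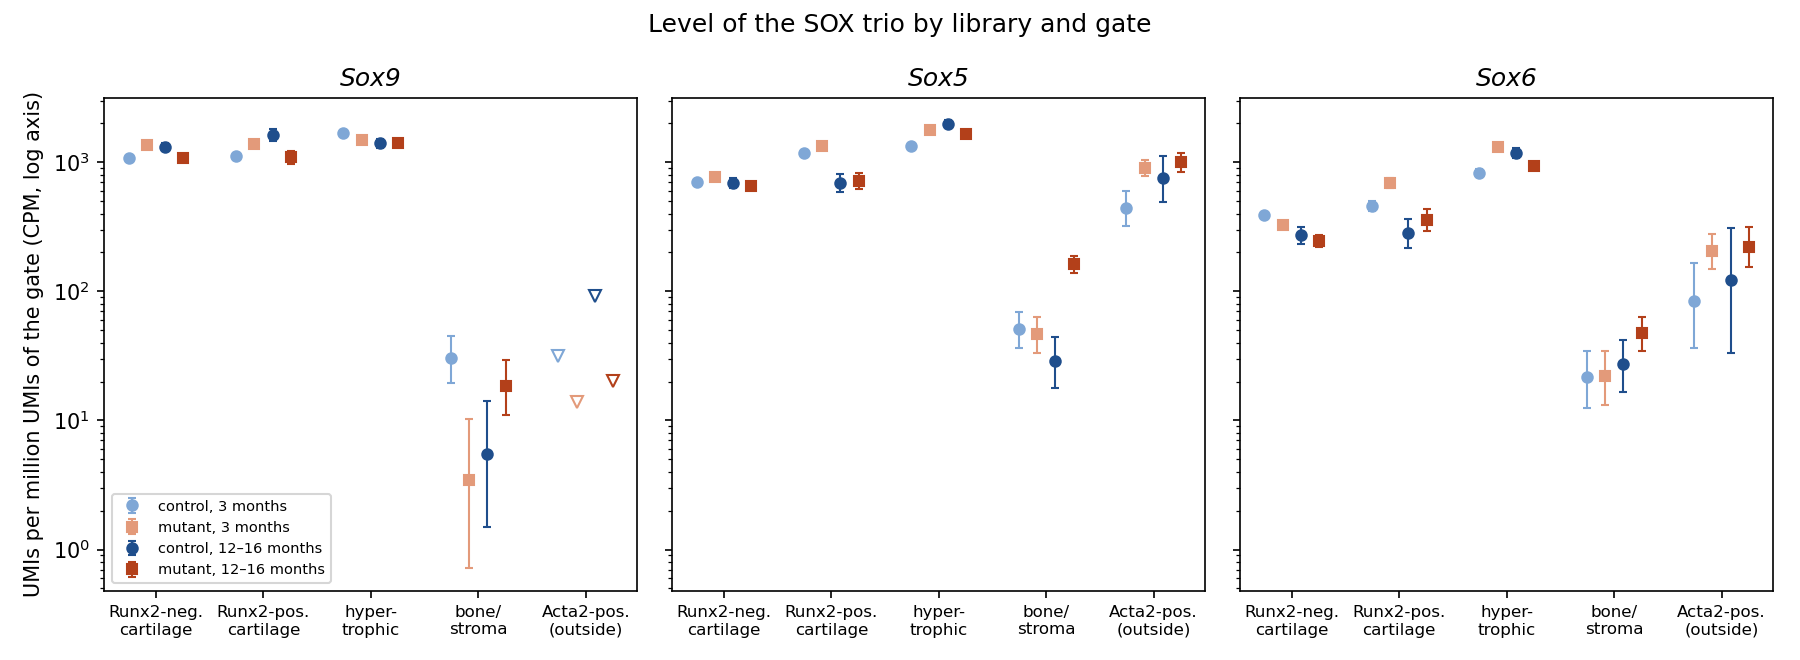
UMIs per 1000000 UMIs (CPM, log axis) of each member in the summed cells of each gate and library, with 95% Poisson intervals. Open triangles mark libraries with 0 UMIs and stand at the limit that 3 UMIs would give. Within each library the cartilage points of a member lie above its bone/stroma point. In the Acta2-positive cells Sox5 lies at 443 to 998 CPM, Sox6 at 84.3 to 222 CPM and Sox9 at 0 UMIs in every library. Heights are to be compared within a gene and not between genes.

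Sox9 marked the cartilage gate in every library. It held 1089, 1371, 1391 and 1082 CPM in the other cartilage cells of the 4 libraries. In the bone/stroma cells it held 30.4, 3.48, 5.49 and 18.6 CPM, from 24, 3, 4 and 18 UMIs. The lowest of these cartilage values was 1082 CPM and the highest bone/stroma value 30.4 CPM. Of all 23707 Sox9 UMIs, 99.4% fell in cartilage cells, which were 75.6% of the cells and held 79.8% of all UMIs. Sox9 was 35.8-fold lower in bone/stroma cells in the 3-month control library and 58.2-fold lower in the 12–16-month mutant library. Over the libraries its log2 ratio averaged -6.91 ± 1.66 (SD, n = 4), and the model across all genes gave -6.79 ± 0.64 (SE; edgeR quasi-likelihood test with Benjamini-Hochberg adjustment, adjusted p = 0.000417).

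Sox5 and Sox6 were also lower in the bone/stroma cells, by smaller amounts. Sox5 held 767, 916, 690.04 and 669 CPM in the other cartilage cells of the 4 libraries in the same order, and 50.7, 46.4, 28.8 and 162 CPM in their bone/stroma cells. Sox6 held 402, 424, 274 and 264 CPM against 21.5, 22.0, 27.4 and 47.5 CPM. In the whole gate the 12–16-month mutant library had the highest bone/stroma level of both genes. Without cells carrying Ptprc, Cdh5 or Acta2 this held for Sox5 (163 CPM) but not for Sox6. Sox6 then held 22.1, 80.5, 29.7 and 43.8 CPM, highest in the 3-month mutant library, from 14 UMIs. The log2 difference was -3.88 ± 0.45 for Sox5 and -3.72 ± 0.37 for Sox6 (SE; edgeR quasi-likelihood test with Benjamini-Hochberg adjustment, adjusted p = 0.000872 and 0.000472). All 3 members were therefore called lower, where 15.5% of 10592 genes were called lower, 15.2% higher and 30.7% in either direction. With library size as the only scaling, higher calls went from 49.5% of all calls (1609 higher, 1640 lower) to 60.6% (2020 higher, 1312 lower) and the median of all genes from 0.03 to 0.22. The fall of Sox9 exceeded that of Sox5 in 4 of 4 libraries, by 3.20 ± 1.35 on the log2 scale (SD, n = 4), and that of Sox6 in 4 of 4, by 3.34 ± 1.69. With 4 libraries the exact sign-flip test, two-sided, cannot go below p = 0.125, the value it gave here for each (adjusted p = 0.225 over 9 comparisons). Sox6 and Sox5 differed by 0.14 ± 0.77, above 0 in 2 of 4 libraries (exact sign-flip p = 0.875).

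In the hypertrophic cells Sox5 and Sox6 were higher than in the other cartilage cells, and Sox9 was not called different. Sox9 held 1683, 1498, 1402 and 1417 CPM in the 4 libraries, Sox5 1333, 1772, 1970.2 and 1664 CPM, and Sox6 832, 1309.8, 1186 and 933 CPM. For Sox9 the lowest hypertrophic value (1402 CPM) stood next to the highest of the other cartilage cells (1391 CPM), both from the 12–16-month control library. The ratio of hypertrophic to other cartilage cells ran from 1.01 to 1.55 for Sox9, from 1.74 to 2.86 for Sox5 and from 2.07 to 4.33 for Sox6.

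By the edgeR quasi-likelihood test with Benjamini-Hochberg adjustment, Sox5 rose by 1.00 ± 0.16 on the log2 scale (SE; adjusted p = 0.00177) and Sox6 by 1.51 ± 0.19 (adjusted p = 0.000445). Sox9 differed by 0.15 ± 0.16, with an interval from -0.22 to 0.52 (adjusted p = 0.518). Thus 2 of the 3 members were called higher, where 15.1% of 11244 genes were called higher, 17.5% lower and 32.5% in either direction. Higher calls were 46.3% of all calls (1694 higher, 1963 lower), and 57.6% with library size as the only scaling (2167 higher, 1593 lower), which moved the median of all genes from -0.02 to 0.11. Without the 12–16-month control library, whose gate lacked Col10a1, the values were 0.25 for Sox9, 0.89 for Sox5 and 1.37 for Sox6, the latter pair still called (adjusted p = 0.00667 and 0.00148).

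The ratios within the trio differed between the gates as well. For each Sox9 UMI there were 0.704, 0.668, 0.496 and 0.618 Sox5 UMIs in the other cartilage cells of the 4 libraries, and 0.792, 1.18, 1.41 and 1.17 in the hypertrophic cells. For Sox6 the numbers were 0.369, 0.309, 0.197 and 0.244, and 0.494, 0.874, 0.846 and 0.658. Both ratios were higher in hypertrophic cells in 4 of 4 libraries, least so in the 3-month control. The log2 change of Sox6 exceeded that of Sox9 by 1.36 ± 0.70 and that of Sox5 by 0.51 ± 0.18 (SD, n = 4), each above 0 in 4 of 4 libraries, at the smallest p the exact sign-flip test allows (p = 0.125, adjusted p = 0.225).

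**Figure D2:**
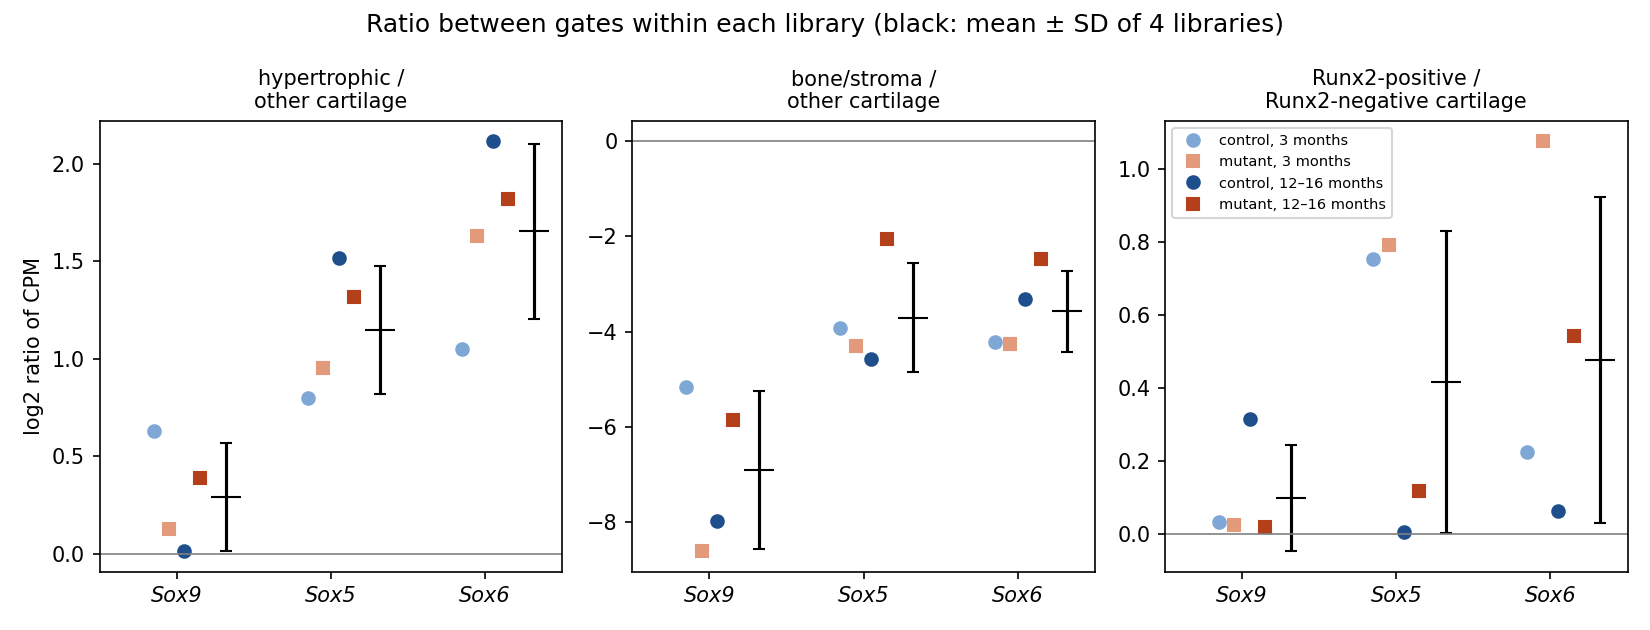
log2 ratio of CPM between gates within each library for the 3 members, with the mean ± SD of the 4 libraries in black. Sox5 and Sox6 lie above 0 in hypertrophic cells in all 4 libraries, all members lie below 0 in bone/stroma cells, and Sox9 lies lowest there.

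Depth and gene span moved with these results. Hypertrophic cells held medians of 19787 to 26780 UMIs, against 7151 to 12090 UMIs in the other cartilage cells. Genes with longer annotated spans had larger differences in hypertrophic cells, with a median log2 difference of -0.22 over 4614 genes under 20 kb and 0.67 over 365 genes of at least 300 kb, of which 47.4% were called higher. Sox5 lay 0.34 above the median of this longest group and Sox6 0.84 above it, and 139 and 86 of the 365 genes had larger differences. Sox9 spans 5.54 kb and belongs to the group under 20 kb. Its difference of 0.15, though not called, also lay above the median of its group (-0.22). Set against genes of like span, Sox9 thus lay on the same side as Sox5 and Sox6. The part of depth, of span and of the lower Dcn level of the hypertrophic cells in the results was not tested. The same holds for the ratios of Sox5 and Sox6 UMIs to Sox9 UMIs.

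Within the other cartilage cells, 156 carried at least 1 Runx2 UMI and 926 none. Sox5 held 1184, 1330, 692 and 716 CPM in the Runx2-positive and 702, 768, 689 and 659.5 CPM in the Runx2-negative cells of the 4 libraries. Sox6 held 459, 691, 283 and 358 CPM against 393, 328, 271 and 246 CPM. For Sox5 the ratios were 1.69 and 1.73 in the 3-month libraries and 1.00 and 1.09 in the 12–16-month libraries, a difference between ages that was not tested. None of the members was called by the edgeR quasi-likelihood test with Benjamini-Hochberg adjustment (log2 differences 0.35 for Sox5, 0.41 for Sox6 and 0.03 for Sox9, adjusted p = 0.371, 0.353 and 0.970), where 1.53% of 9598 genes were called, 1.41% higher and 0.125% lower. Over 321 genes of at least 300 kb the median log2 difference was 0.52. Of these genes, 201 had larger differences than Sox5 and 188 than Sox6. The Runx2-positive cells held a median of 12766.5 UMIs and the Runx2-negative cells 10375. The part of span and of depth in the Runx2 split was not tested. With the gates set on UMIs per 10000 UMIs of the cell, Sox5 (0.66, adjusted p = 0.0281) and Sox6 (0.94, adjusted p = 0.0218) were called by the same test and Sox9 turned to -0.14. That setting called many more genes in all, 1347 against 147 with the main gates.

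The members also followed Acan itself, used here as a scale in UMIs per 10000 UMIs of the cell. Over all cells, Sox9 held 9.58 CPM at no Acan, 309 CPM up to 5, 1054 CPM up to 20, 1228 CPM up to 50 and 1555 CPM above 50, and it was higher at each step in all 4 libraries. Sox5 held 150, 382, 863, 1137 and 1015 CPM and Sox6 73.4, 144, 482, 657 and 593 CPM over the same bins. Their highest level thus lay in the bin from 20 to 50 in the 3-month mutant and both 12–16-month libraries, and in the bin above 50 in the 3-month control library. The second bin holds 10 to 21 cells a library, and its values in single libraries are coarse.

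**Figure D3:**
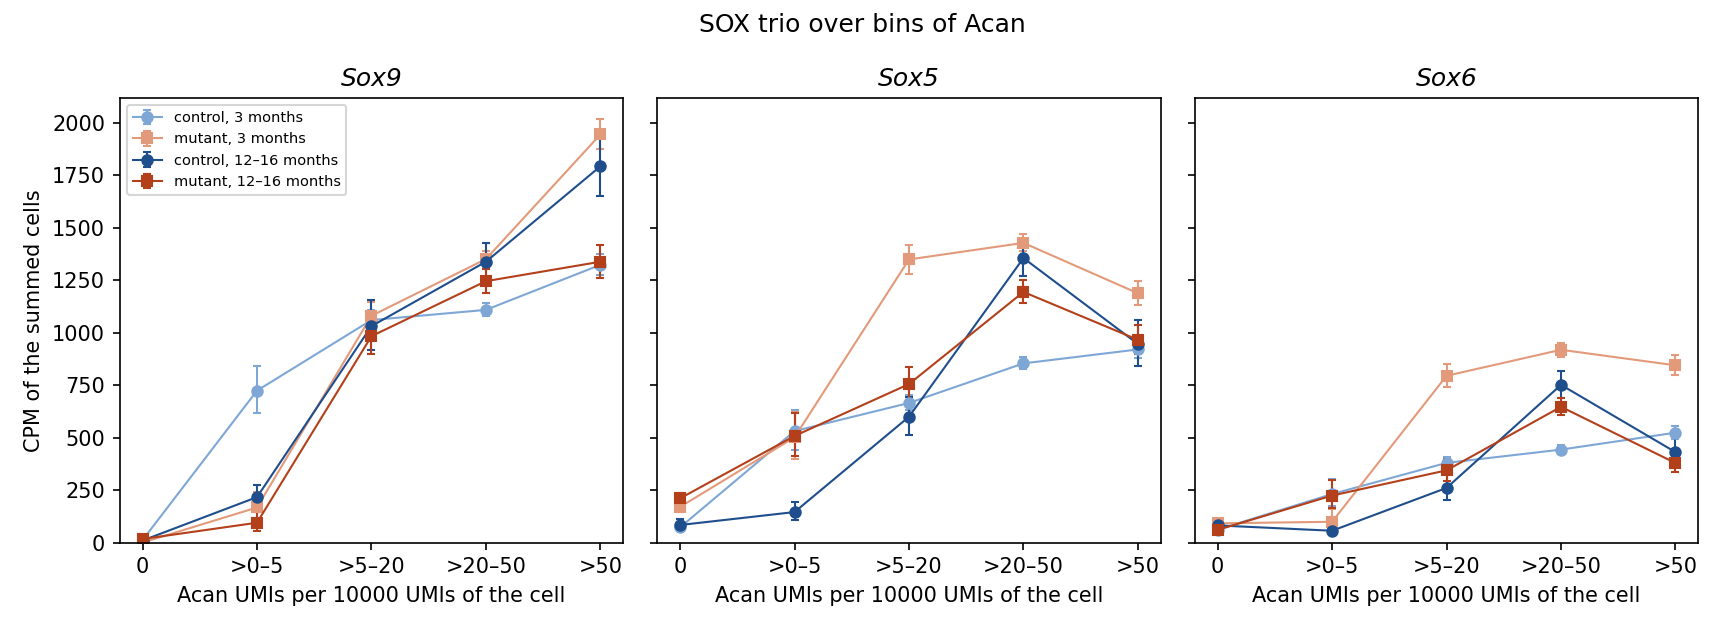
CPM of each member in cells binned by Acan UMIs per 10000 UMIs of the cell, for each library, with 95% Poisson intervals. Sox9 climbs to the last bin in every library, whereas Sox5 and Sox6 turn down after the bin from 20 to 50 in 3 of the 4 libraries.

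Most cartilage cells carried the 3 members together. In the other cartilage cells Sox9 was detected in 96.3%, Sox5 in 93.3% and Sox6 in 81.2% of the cells, and all 3 in 76.2%. In the hypertrophic cells all 3 were detected in 97.2%, and in the bone/stroma cells in 3.09% (6 of 194 cells). In Ptprc-positive cells, taken as cells that should lack the trio, Sox9 and Sox6 were found in 0 of 54 cells, which allows a share of cells with a UMI of up to 5.56% (3 cells), and Sox5 in 14.8%, at a median of 5041 UMIs against 10643 UMIs in the other cartilage cells. In the bone/stroma cells, at a median of 11719 UMIs, Sox9 was found in 11.3%, Sox5 in 33.5% and Sox6 in 22.2% of the cells. After thinning to 3000 UMIs the expected shares were 3.55, 19.5 and 10.3% there and 85.0, 79.3 and 55.1% in the other cartilage cells.

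The share with all 3 was 82.0, 83.3, 72.7 and 54.2% in the other cartilage cells of the 4 libraries, lowest in the 12–16-month mutant library, which was also the shallowest. In the hypertrophic cells it was 91.9, 100, 88.2 and 96.5%. Cells were therefore thinned to 3000 UMIs, leaving out shallower ones. The expected shares were then 41.4, 45.4, 35.8 and 29.4% in other cartilage and 70.0, 84.2, 76.5 and 77.9% in hypertrophic cells, so the gap between the gates remained in each library and the order of the libraries in other cartilage was kept.

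**Figure D4:**
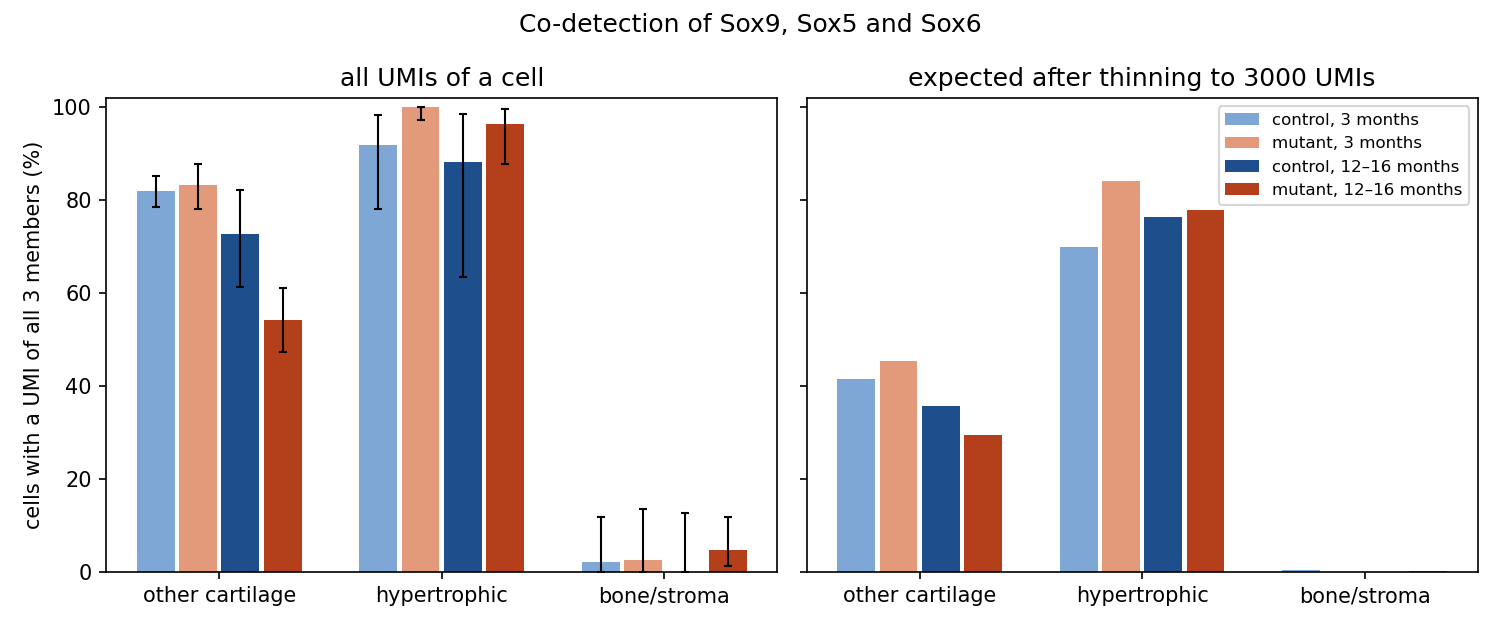
Share of cells (%) with at least 1 UMI of all 3 members by gate and library, from all UMIs of a cell with 95% Clopper-Pearson intervals (left) and expected after thinning each cell to 3000 UMIs (right). Hypertrophic cells have the highest share in each library on both scales, and bone/stroma cells lie near 0.

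The cells without the full trio mostly lacked Sox6. Among the 1082 other cartilage cells, 152 had Sox9 and Sox5 without Sox6, 43 had Sox9 alone, 28 had Sox5 and Sox6 without Sox9 and 23 had Sox9 and Sox6 without Sox5. Only 2 had none of the 3. Sox6 was found in 84.4% of the cells with Sox5 and in 37.5% of those without, which were shallower (medians of 11089 and 4806.5 UMIs). Sox9 made no such split, since Sox6 was found in 81.3% of the cells with Sox9 and in 80.0% of the 40 without. In the bone/stroma cells Sox9 was the member most often missing, found in 22 of 194 cells beside 65 with Sox5 and 43 with Sox6. There 103 cells lacked all 3, 34 had Sox5 alone, 19 had Sox5 and Sox6 without Sox9, and 8 had Sox9 alone.

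The few Sox9 UMIs of the bone/stroma gate were uneven between its cells. In the 21 cells with 1 or 2 Acan UMIs Sox9 had 63.6 CPM (32 UMIs), and in the 173 cells with none 5.97 CPM (17 UMIs). In the same cells Sox5 had 67.6 and 78.7 CPM and Sox6 37.8 and 29.2 CPM. These are pooled values, and by library Sox5 had 122, 48.5, 3.64 and 206 CPM in the cells with 1 or 2 Acan UMIs against 41.5, 46.3, 44.0 and 157 CPM in those with none, from 2 to 7 cells a library in the first set. Sox9 was higher in the cells with traces of Acan in 4 of 4 libraries, and Sox5 in 3 of 4. A single cell of the 3-month control library held 18 of the Sox9 UMIs. The 39 cells with Ptprc, Cdh5 or Acta2 held 0 Sox9 UMIs. Without them the 3-month mutant library had 17.2 CPM of Sox9, 46.0 of Sox5 and 80.5 of Sox6, from 3, 8 and 14 UMIs.

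All 3 members were higher in the bone/stroma cells of the 12–16-month mutant library than in those of the 12–16-month control library, Sox5 the most. There Sox5 had 157 UMIs in 37 of 83 cells, and its level was 5.63-fold that of the 12–16-month control library (95% counting interval 3.56 to 9.34). Sox9 was 3.39-fold (1.12 to 13.8, from 18 and 4 UMIs) and Sox6 1.73-fold (1.00 to 3.09). Of the genes tested, 98.8% had a lower ratio than Sox5, 96.5% than Sox9 and 78.2% than Sox6. The median log2 ratio of all genes was 0.30. These gates were unlike, since the 12 bone and stroma markers summed to 147517 CPM in the control and 53429 CPM in the mutant cells. The part of this in the ratios was not tested. At 3 months the ratios of mutant to control in this gate were 0.114 for Sox9 (from 3 and 24 UMIs), 0.916 for Sox5 and 1.02 for Sox6. A single control cell held 18 of the 24 Sox9 UMIs. The 3-month gates were also unlike, with the same markers at 91017 CPM in control and 9294 CPM in mutant cells. Without cells carrying Ptprc, Cdh5 or Acta2, Sox9 held 31.2 CPM in the control and 17.2 CPM in the mutant library. Sox5 then held 28.6 and 46.0 CPM and Sox6 22.1 and 80.5 CPM, the mutant values from 3, 8 and 14 UMIs. The part of gate make-up in the 3-month ratios was not tested. The bone/stroma cells with at least 3 UMIs of Cxcl12, a chemokine of marrow stroma, held 28.1, 54.2, 77.0 and 212 CPM of Sox5 in the 4 libraries. The others held 89.1, 44.8, 4.15 and 96.9 CPM, the third of these from 2 UMIs. The 12–16-month mutant library was highest in both groups of cells, and 54 of its 83 bone/stroma cells were Cxcl12-positive, against 13 of 27 in the 12–16-month control library. With 1 library a condition, this is a comparison of these libraries only.

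Outside the gates lay 234 cells, in which the trio came apart. The first set was 46 cells with at least 3 UMIs of Acta2, smooth muscle actin, which also carried Tagln in 88.9 to 100% and Myh11 in 100% of the cells of each library. Sox5 was found in 45 of these 46 cells, at 443, 901, 761 and 998 CPM in the 4 libraries, levels of the order of those in cartilage. Sox9 had 0 UMIs in all 46, which allows a share of cells with a UMI of up to 6.52% (3 cells), and Sox6 was found in 25. Cartilage transcripts were near absent from them, with 1 UMI of Col2a1 and 0 of Hapln1.

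The second set was 11 hemoglobin-rich cells, with at least 10 UMIs of Hba-a1 and Hbb-bs together, found in 3 of the 4 libraries. Sox6 was found in 9 of them, at 3834, 1309.8 and 965 CPM in the 3-month control, 3-month mutant and 12–16-month control libraries (29, 56 and 27 UMIs). They held 112 of the 148 Sox6 UMIs in the 135 ungated cells with under 3 Acta2 UMIs and no Ptprc UMI. Sox9 had 0 UMIs and Sox5 had 6 UMIs in these 11 cells. In the remaining 124 cells Sox6 had 97.8 CPM, Sox5 166 CPM and Sox9 247 CPM, at a median of 1576 UMIs a cell. Both sets were split off after their values had been seen.

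At 3 months, the mutant library had more Sox9 in other cartilage cells than the control library and more Sox5 and Sox6 in hypertrophic cells. The ratio of mutant to control in other cartilage cells was 1.26 for Sox9 (95% counting interval 1.21 to 1.31), 1.19 for Sox5 and 1.05 for Sox6 (0.986 to 1.13). In hypertrophic cells it was 0.890 for Sox9, 1.33 for Sox5 and 1.57 for Sox6 (1.46 to 1.71). Of the genes tested there, 68.4% had a lower ratio than Sox5 and 79.1% than Sox6. These gates were unlike, since the 8 hypertrophic markers summed to 18842 CPM in the 37 control cells and 7293 CPM in the 136 mutant cells. The part of this in the ratios was not tested. In the hypertrophic cells only Sox6 passed 1.5-fold, 1 of 3 members where 38.7% of 10506 genes did so in either direction. In other cartilage cells 0 of 3 members passed, where 27.9% of 12469 genes did. The Sox6 ratio there joined opposite sides of 1. It was 0.834 (0.767 to 0.907) in the Runx2-negative cells and 1.51 (1.33 to 1.71) in the Runx2-positive cells. In the latter, 60 control and 59 mutant cells, 76.9% of genes tested had a lower ratio.

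At 12–16 months the directions were the opposite for Sox9 in other cartilage and for Sox5 and Sox6 in hypertrophic cells. In other cartilage cells the ratio of mutant to control was 0.778 for Sox9 (0.725 to 0.835), 0.969 for Sox5 and 0.965 for Sox6, the last pair with intervals that included 1. In hypertrophic cells it was 1.01 for Sox9, 0.845 for Sox5 and 0.787 for Sox6. No member passed 1.5-fold in either gate, where 23.9% of 9674 genes did in other cartilage and 34.3% of 8244 in hypertrophic cells. Scaling by the factors of trimmed means of M-values (TMM) turned Sox6 at 3 months to 0.986, Sox5 at 12–16 months to 1.04 and Sox6 at 12–16 months to 1.04 in other cartilage, and left the sides of 1 of the other values as they were. When every cell was weighted equally, the 12–16-month ratios in hypertrophic cells were 0.981 for Sox5 and 0.793 for Sox6, so that of Sox5 lay close to 1. The 17 hypertrophic cells of the 12–16-month control library without Col10a1 stand on 1 side of these ratios.

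**Figure D5:**
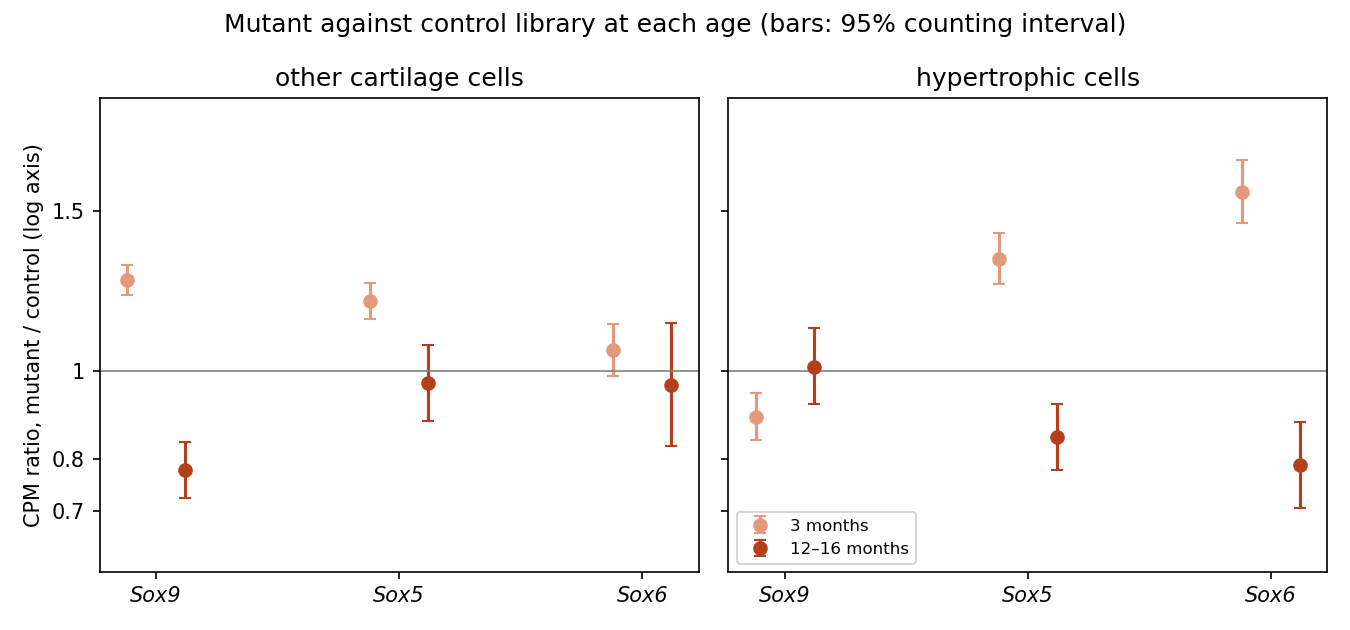
Ratio of CPM in the mutant library to that in the control library of the same age, with 95% conditional binomial intervals that cover counting error only (log axis). In other cartilage cells Sox9 lies above 1 at 3 months and below 1 at 12–16 months, and in hypertrophic cells Sox5 and Sox6 do.

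Between the ages, Sox6 was lower in the older other cartilage cells of both genotypes, the cells in which Dcn was higher at 12–16 months, and the part of Dcn-rich cells in this was not tested. The ratio of the 12–16-month to the 3-month library was 0.682 in control and 0.624 in mutant cells for Sox6, 0.900 and 0.730 for Sox5, and 1.28 and 0.789 for Sox9. With CPM only the mutant Sox6 value passed 1.5-fold, and with TMM the control value (0.629) passed too, where 28.2% of 11008 genes did, and 29.7% of 11995 genes did among the control libraries. When cells were weighted equally, the control Sox6 value was 0.753. For Sox5 the control and mutant ratios were 0.585 and 0.538 in the Runx2-positive cells and 0.982 and 0.859 in the Runx2-negative cells. For Sox6 they were 0.616 and 0.518, and 0.690 and 0.750. In the Runx2-positive cells 22.9 and 23.5% of genes tested had a lower ratio than Sox5, and 25.1 and 21.7% than Sox6. The median log2 ratio of all genes there was -0.17 in control and -0.25 in mutant cells. In the Runx2-negative cells 43.6 and 32.8% had a lower ratio than Sox5, and 16.3 and 20.1% than Sox6. The older control library had 10 Runx2-positive cells. In hypertrophic cells the ratios were 1.43 and 0.712 for Sox6, 1.48 and 0.939 for Sox5, and 0.833 and 0.946 for Sox9, and 0 of 3 members passed in either genotype, where 38.4% and 33.8% of the genes tested did. With every cell weighted equally, Sox6 passed in the control libraries (1.59).

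Among 20 SOX genes, the 3 members were the most counted in these cells, with 23707 UMIs of Sox9, 20203 of Sox5 and 11520 of Sox6. The next were Sox4, a factor of progenitors and stroma, with 1572 UMIs, and Sox8, the relative of Sox9, with 1362. Sox10, the other relative and a defining gene of glia, had 2 UMIs, and 7 genes had 0. In bone/stroma cells Sox8 was lower (log2 -5.53 ± 0.43 SE, adjusted p = 0.000204 by the edgeR quasi-likelihood test with Benjamini-Hochberg adjustment) and Sox4 higher (1.75 ± 0.22, adjusted p = 0.00120), and in hypertrophic cells Sox12 was higher (2.67 ± 0.58, adjusted p = 0.00817). Sox13, the relative of Sox5 and Sox6, had 105 UMIs, 38 of them in the 46 Acta2-positive cells. In all, 3 of 6 SOX genes tested were called higher and 0 lower in hypertrophic cells, and 1 higher and 4 lower in bone/stroma cells, where 32.5% and 30.7% of all genes were called in either direction.

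A list of genes taken as targets of SOX9 in cartilage, not all of them matrix genes, was counted in the same comparisons. Of the 25 listed genes, 18 were called higher and 1 lower in hypertrophic cells, where 15.1% of all 11244 genes were called higher and 17.5% lower. The median log2 difference of the list was 1.48 beside -0.02 over all genes. The largest differences were in Matn3, a matrilin, at 4.52, Col9a1, a chain of collagen IX, at 4.14 and Mia, a secreted cartilage protein, at 4.13, and the gene called lower was Fibin at -3.77. Sox9 itself was not called there, while its partners Sox5 and Sox6 were. In bone/stroma cells 0 of 23 were called higher and 21 lower, where 15.2% and 15.5% of all genes were, with a median of -5.83 beside 0.03 over all genes. The 21 include Acan (-9.22), whose difference the gates fixed, and the next were Epyc at -9.03 (0 UMIs in that gate) and Hapln1, the link protein, at -8.07. Between Runx2-positive and Runx2-negative cartilage cells 3 of 24 were called higher, Col9a1 (3.70), Matn3 (2.60) and Col11a1 (1.09), and 0 lower. The list was written from knowledge of these genes with earlier results of these data known.

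Of 31 upstream regulators and partners of the trio tested in hypertrophic cells, 4 were called higher and 19 lower, beside 15.1% and 17.5% of all genes. The lowest were Pax9 (-6.55), Meox1 (-6.32) and Barx1 (-6.12), the first pair being sclerotome and somite factors, and the highest were Uncx (1.86), the hedgehog effector Gli3 (1.58) and Ctnnb1, β-catenin (0.87). The median of the list was -0.78. In bone/stroma cells 3 of 28 were called higher, led by Prrx1 (3.94), and 13 lower, led by Barx1 (-6.87), Bmpr1b (-6.37) and Pax1 (-4.75), with a median of -1.13. Of 19 transcription factors of hypertrophy and bone, 10 were called higher and 4 lower in hypertrophic cells, beside the same 15.1% and 17.5%, with Runx3 at 4.09, Runx2 at 3.93 and Sp7 at 3.85 the highest and Runx1 at -3.57 the lowest. In bone/stroma cells 9 of the 19 were called higher and 4 lower, beside 15.2% and 15.5% of all genes, and the 9 include Runx2, which set the gate. Between Runx2-positive and Runx2-negative cells 4 of 17 of them were called higher, beside 1.41% of all genes, among them Lef1 (6.01), Runx3 (5.98) and Runx2, whose difference the split fixed, and of 29 upstream regulators Prrx1 (2.91) alone.

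Over 20 points, namely 5 groups of cells in each of 4 libraries, the genes whose log2(CPM + 10) ran most like that of Sox9 among 9816 genes were Acan (Pearson's r 0.986), Meltf (0.984), Chad (0.980), Hapln1 (0.979) and Pcolce2 (0.978). Acan is the gene that set the gates. For Sox5 the closest gene was Sox6 (0.957), followed by Susd5 (0.954), Cspg4 (0.939), Iqsec1 (0.938), Cobll1 (0.933) and Xylt1 (0.932). For Sox6, after Sox5, they were Iqsec1 (0.939), Cspg4 (0.938), Abhd2 (0.937), Dhx58os (0.929) and Cnmd (0.923). Sox9 had r of 0.904 with Sox5 and 0.870 with Sox6. The points of 1 library share that library and its depth, and these values are descriptions without a test.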

How the data were processed

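Single-cell libraries (10x 3′ v3.1) of sorted tdTom+ spine cells were used. The authors deposited raw UMI counts per gene and barcode from Cell Ranger 8.0.0 on mm10. Their correction for free RNA was not repeated and their cell annotation was not used here.

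Cells were kept if they exceeded 750 UMIs and 500 genes and if mitochondrial UMIs stayed under 7% (1757 cells). Scrublet marked 2 to 9 doublets a library, which were kept. Levels are UMIs per 1000000 UMIs of the summed cells, with exact Poisson intervals. Shares have Clopper-Pearson intervals. All intervals cover counting error only. Thinned shares are the expectation at 3000 or 1500 UMIs a cell. Gates were compared on sums per library with the edgeR quasi-likelihood test (edgeR 4.0.16, R 4.3.3), TMM scaling, a filter on low counts, a term for library and Benjamini-Hochberg adjustment at 0.05. The 4 libraries served as replicates and differ in genotype and age, so errors are the spread of a gate difference over 4 conditions. In simulated counts, 4-fold changes were recovered for 91% of genes in the hypertrophic, 87% in the bone/stroma and 94% in the Runx2 comparison, and 2-fold changes for 55%, 14% and 37%. Of the calls, 5.19, 3.81 and 1.50% were false. Within a comparison the simulated libraries shared 1 mean profile and 1 dispersion for all genes. They therefore lacked the differences between conditions that the real libraries carry. Differences between conditions were not tested, since each was 1 library, and ratios of 1 library to another are given with the share of genes past 1.5-fold.

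Members and lists were chosen with earlier results of these data known. Named genes were the 3 members, the SOX family, up to 3 leading called genes a list in each direction, and the 5 genes most like each member. Alternatives were DESeq2 1.42.0, library-size scaling, no filter, other gates, no library term, doublets left out and each library left out.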

Additional observations from a re-analysis of the deposited data

Results flagged for a closer look

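In other cartilage cells Sox9 was higher in the mutant than in the control library at 3 months (1.26-fold) and lower at 12–16 months (0.778-fold), so the ratios differed by a factor of 1.62. In hypertrophic cells Sox5 had ratios of 1.33 and 0.845, a factor of 1.57, and Sox6 ratios of 1.57 and 0.787, a factor of 2.00. The 12–16-month ratio of Sox5 was 0.981 when every cell was weighted equally. With 1 library a condition these differences were not tested.

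The 415 barcodes that failed the filters and entered no comparison also carried the members, at 425 CPM of Sox5, 277 CPM of Sox6 and 95.9 CPM of Sox9. Whether these UMIs came from cells or from free RNA was not tested. Of these barcodes 294 had at least 7% mitochondrial UMIs.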

How the results depend on the processing

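Sox5 and Sox6 kept their direction and call in the hypertrophic and bone/stroma comparisons under all 12 alternatives, with log2 differences of 0.89 to 1.14 and 1.37 to 1.70 in hypertrophic and -4.37 to -3.56 and -4.04 to -3.24 in bone/stroma cells. Sox9 stayed called in bone/stroma (-7.48 to -6.12) and uncalled in hypertrophic cells (0.02 to 0.29). The gates were paired within library by the term for library, and leaving it out is among the 12.

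Counts of called genes moved more. With each library left out, they ran from 2400 to 3326 in hypertrophic cells (3657 with all; 2400 without the 12–16-month mutant) and from 2009 to 3986 in bone/stroma cells (3249 with all; 2155 without the 3-month control and 2009 without the 12–16-month mutant). For the Runx2 split 147 genes were called, 19 without the 3-month control, 73 without the 3-month mutant, 65 without the 12–16-month mutant and 267 without the 12–16-month control library. DESeq2 gave 230, no filter 936, no library term 39, gates per 10000 UMIs 1347 and no doublets 80. The cause was not tested.

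In the Runx2 split Sox9 went from 0.03 to -0.049 with no filter, to -0.14 with gates per 10000 UMIs or without cells carrying Ptprc, Cdh5 or Acta2, and to -0.10 without the 12–16-month control library (range -0.10 to 0.091 with each library left out). Gates per 10000 UMIs gave 0.66 for Sox5 and 0.94 for Sox6.

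The 3-month ratios of mutant to control in other cartilage cells became 1.18 for Sox9, 1.12 for Sox5 and 0.986 for Sox6 with TMM, 1.20, 1.29 and 1.14 with every cell weighted equally, and 1.32 for Sox5 and 1.29 for Sox6 with gates per 10000 UMIs. The 12–16-month ratio of Sox9 became 0.838 with TMM, and 0.856 with cells weighted equally or without the marker-carrying cells.

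Thinning to 3000 and 1500 UMIs lowered the shares of cells with all 3 members to 39.7 and 16.4% in other cartilage, 80.2 and 51.5% in hypertrophic and 0.160 and 0.676% in bone/stroma cells, where the second value can exceed the first because shallower cells enter (181 cells at 3000 and 192 at 1500 UMIs). In the same order the shares with Sox9 and Sox5 became 67.4 and 40.9, 89.2 and 68.9, and 1.69 and 1.43%. Those with Sox9 and Sox6 became 46.7 and 24.7, 82.5 and 58.2, and 0.275 and 1.14%. Those with Sox5 and Sox6 became 46.9 and 23.9, 86.3 and 64.0, and 4.69 and 2.47%. Set against the median of genes of at least 300 kb, the hypertrophic differences were 0.34 for Sox5 and 0.84 for Sox6, a comparison chosen after seeing the data, as were the splits of the bone/stroma and ungated cells and the rescaling of the hypertrophic and age ratios. The comparison of Sox9 with genes under 20 kb was also chosen after seeing the data.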
